A study of Homo sapiens with 2 samples.

Results

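The centromere bands of the acrocentric chromosomes 14, 15 and 22 held 487 of the 24258 peaks in the authors' list of TRF2 peaks in HCT116, a human colorectal carcinoma cell line. A peak was a member when its summit lay in 1 of 3 cytogenetic bands of hg38: chr14:16100001-18200000, chr15:17500001-20500000 or chr22:13700001-17400000. Chromosome 15 had 333 members, chromosome 22 had 123 and chromosome 14 had 31. The data came from 1 library immunoprecipitated with an antibody to TRF2 and 1 input library, the sonicated chromatin taken without antibody. Both libraries were labelled as HCT116 with no other treatment, although the name of the peak list mentions a control siRNA. The cells were fixed with 1% formaldehyde after 72 h in culture, and 100 μg of chromatin received 5 μg of antibody. With 1 library per group no comparison of samples could be tested, and every interval here covers counting error only.

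TRF2 is a shelterin protein. It binds the double-stranded TTAGGG repeats of telomeres as a dimer and helps fold the chromosome end into a protective loop. Centromeres are built on alpha satellite, a tandem repeat arranged in long higher-order arrays, part of which carries the histone variant CENP-A and the kinetochore. In acrocentric chromosomes the centromere separates a long arm from a short arm made mostly of satellite DNA and ribosomal RNA genes. The alpha satellite arrays of chromosomes 14 and 22 are nearly identical in sequence, as are those of chromosomes 13 and 21. A short read from such an array may therefore match several places, and no source used here states how the authors treated such reads.

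The 3 bands differed in peak density. Chromosome 15 had 111 peaks per Mb of band (exact Poisson 95% interval 99.4 to 123.6), chromosome 22 had 33.2 per Mb (27.6 to 39.7) and chromosome 14 had 14.8 per Mb (10.0 to 20.95). Density on chromosome 15 was 7.52 times that on chromosome 14 (exact interval 5.20 to 11.2) and 3.34 times that on chromosome 22 (2.71 to 4.14). Chromosome 22 in turn had 2.25 times the density of chromosome 14 (1.51 to 3.46). These intervals treat peaks as independent counts, which neighbouring peaks in a block need not be. Peaks covered 1.359% of the band on chromosome 15, 0.370% on chromosome 22 and 0.193% on chromosome 14.

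**Figure D1:**
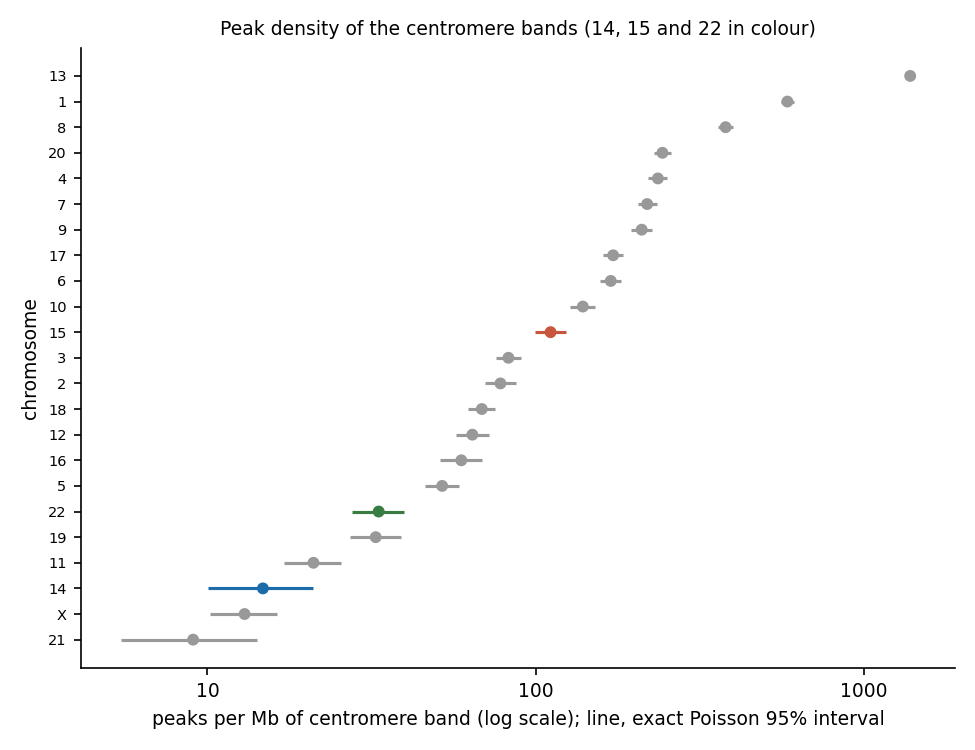
Peaks per Mb of centromere band for the 23 chromosomes with any peak in theirs, on a log axis; points are densities and lines exact Poisson 95% intervals. Chromosomes 14, 15 and 22 (coloured) stand at 14.8, 111 and 33.2 per Mb, between chromosome 21 at 9.05 and chromosome 13 at 1382.

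Among the 23 chromosomes with a peak in their centromere band, chromosome 15 ranked 11 in density, chromosome 22 ranked 18 and chromosome 14 ranked 21. The other acrocentric chromosomes stood at the ends of this order: chromosome 13 had 1382 per Mb (exact Poisson interval 1335 to 1430) and chromosome 21 had 9.05 per Mb (5.45 to 14.1). The intervals of chromosomes 14 and 21 overlapped. Band densities were 14.8 and 33.2 per Mb for chromosomes 14 and 22, said above to have near-identical arrays. For the other such pair, chromosomes 13 and 21, they were 1382 and 9.05 per Mb. These densities are of cytogenetic bands, and how many of the peaks lie in an array was not analysed here.

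Fold over input is the authors' ratio at the summit, the immunoprecipitated pileup plus 1 over the local input background plus 1. The added 1 lowers the fold of shallow peaks. On the 3 chromosomes fold had medians that lay close together. The median was 4.23 on chromosome 14 (range 2.93 to 16.01), 4.09 on chromosome 15 (2.40 to 13.7) and 4.31 on chromosome 22 (1.95 to 12.3), against 4.06 in the whole list. The 95% order-statistic intervals of these medians, 3.71 to 4.70, 3.90 to 4.23 and 3.90 to 4.39, overlapped one another. Members with a fold of 5 or more were 7 of 31 on chromosome 14, 54 of 333 on chromosome 15 and 41 of 123 on chromosome 22, or 22.6%, 16.2% and 33.3%, with 25.2% of the whole list past this value.

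Most members were shallow. The pileup at the summit is the number of immunoprecipitated reads there, worked out from the fold and p that the authors deposited. Its median was 8 reads on chromosomes 14 and 15 and 9 on chromosome 22, against 11 in the whole list. Peaks of 5 to 7 reads made up 29.0% of the members on chromosome 14, 37.5% on chromosome 15 and 35.8% on chromosome 22, but 14.4% of the 14714 peaks in the other centromere bands, of which chromosome 13 supplied 3317. Band by band the median of this share was 29.0% over the 23 chromosomes. The local input background, scaled by the peak caller to the immunoprecipitated library, lay at its genome-wide minimum of 1.05 (within 0.0005) at 242 of 487 members (49.7%). In the other centromere bands it lay there at 19.4% of peaks, and band by band the median share was 35.3%. By chromosome the share was 35.5% on 14, 52.6% on 15 and 45.5% on 22.

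With few reads over a fixed background, few values are possible. The 487 members held 143 distinct pairs of fold and p. The commonest pair, a fold of 3.90 from 7 reads over the minimum background, was shared by 58 members. Members over that background with 5, 6, 8 and 9 reads had folds of 2.93, 3.41, 4.39 and 4.88. Order by fold among such members is an order by single reads.

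A strong peak was defined by a −log10 q of 5 or more. Of the 487 members 88 were strong (18.1%, exact binomial 95% interval 14.8% to 21.8%), against 30.0% of the whole list and 30.2% of the other centromere bands. Chromosome 22 had 33 of 123 strong (26.8%, interval 19.2% to 35.6%), chromosome 14 had 6 of 31 (19.4%, 7.45% to 37.5%) and chromosome 15 had 49 of 333 (14.7%, 11.09% to 18.98%). The intervals of chromosomes 15 and 22 did not overlap, while that of chromosome 14 overlapped both. These intervals too treat peaks as independent, which neighbouring peaks in a block need not be. With the densest 100 kb window of each band left out, the shares were 11.2% on chromosome 22 and 8.28% on chromosome 15. Taken band by band, the share of strong peaks had a median of 15.8% over the 23 chromosomes and reached 53.8% on chromosome 13. At a q-value under 0.05 there were 365 members (74.9%), against 79.3% of the whole list, and the 3 chromosomes had 77.4% (14), 75.7% (15) and 72.4% (22).

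**Figure D2:**
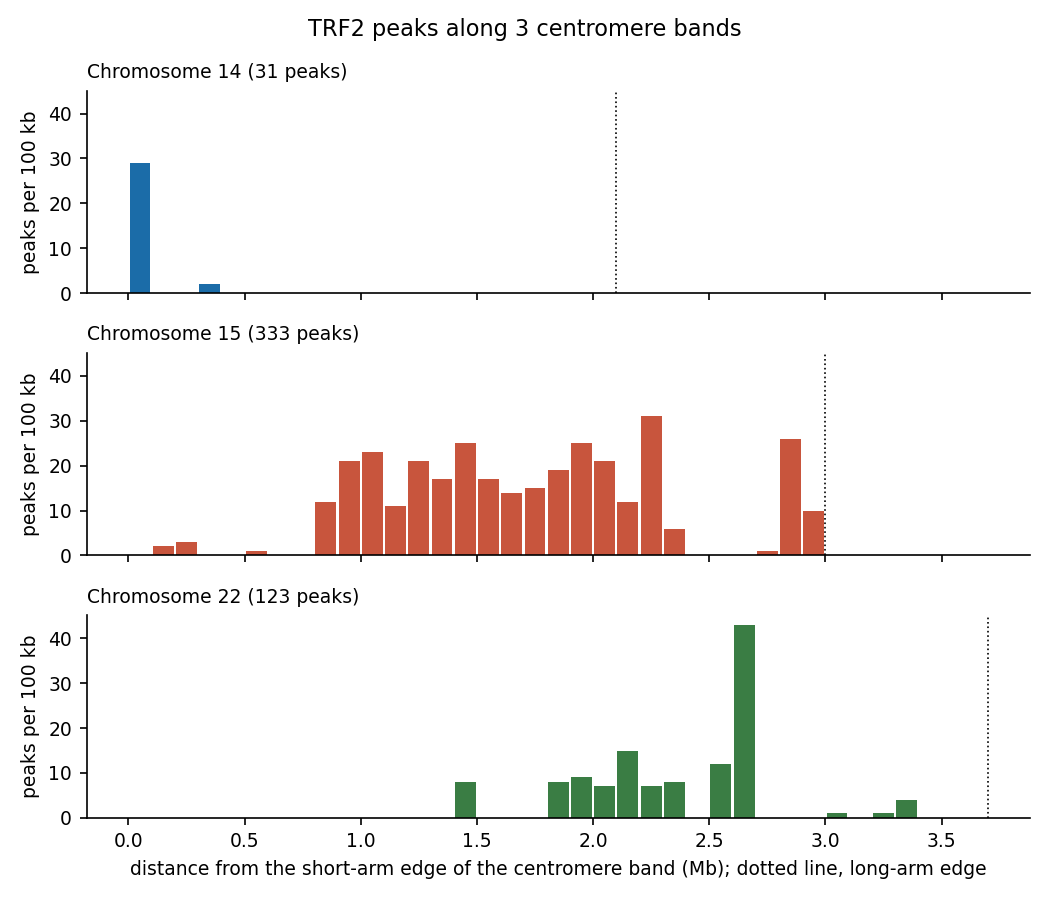
Peaks per 100 kb along each centromere band, by distance from the short-arm edge in Mb; the dotted line marks the long-arm edge. Chromosome 14 has 29 peaks in its first window, chromosome 15 is filled over most of its middle, and chromosome 22 has its highest bar, 43 peaks, on the long-arm side.

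The layout along the band set the chromosomes apart. All 31 members on chromosome 14 lay in band p11.1, the short-arm side of the centromere band, whereas all 123 on chromosome 22 lay in q11.1, the long-arm side. On chromosome 15, 136 of 333 (40.8%, exact interval 35.5% to 46.3%) lay in p11.1. Of 100 kb windows, 19 of 21 held no peak on chromosome 14, 25 of 37 on chromosome 22 and 8 of 30 on chromosome 15. The densest window held 93.5% of the peaks on chromosome 14, 35.0% on chromosome 22 and 9.31% on chromosome 15. For the account below, members were grouped into segments, a new one starting where neighbouring summits were more than 50 kb apart. That distance was chosen after the positions were seen. It gave 2 segments on chromosome 14, 8 on chromosome 15 and 8 on chromosome 22.

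On chromosome 14 a single block at the short-arm edge held 29 of the 31 members. It ran over 39.8 kb from the summit at 16100436 to that at 16140253, with a median gap of 822 bp between neighbours, and held all 6 strong members. Its strongest peak, chr14:16100368-16100491, had a fold of 16.01 from 57 reads over a background of 2.62 (−log10 q 49.9). The next, chr14:16102645-16102845, had a fold of 13.9 from 52 reads over 2.82. A pair of deep peaks between and beside them, chr14:16102032-16102114 and chr14:16103509-16103649, had 59 reads each but folds of only 4.89 and 5.12, because the input background was 11.3 and 10.7. These 4 of the 6 strong members lay within the first 5 kb of the band.

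Farther into the block the peaks became shallow. chr14:16113320-16113771, the widest member on this chromosome at 452 bp, had a fold of 7.81 from 15 reads, and chr14:16126646-16126801 had 6.89 from 15 reads. chr14:16120552-16120656, the fifth by fold, had 5.37 from 10 reads. The lowest folds were 2.93 (chr14:16117983-16118071, 5 reads) and 2.97 (chr14:16117320-16117436, 7 reads). After an empty stretch of 260.8 kb came a pair of weak peaks at 16401088 and 16403632, each of 6 reads and with folds of 3.41 and 3.29. From there to the long-arm edge, 1796 kb, the list held no peak.

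The edge of this band cut through a run of peaks. Counting the peaks outside it, the run had 41 summits from 16044379 to 16140253, of which 12 lay outside the band on the short-arm side. Those 12 had a median fold of 8.14 and a highest fold of 29.8, and 8 of them were strong. The summits nearest the edge lay 0.095 kb outside (chr14:16099851-16099951, fold 11.3, 42 reads) and 0.435 kb inside (fold 16.01, 57 reads). At the long-arm edge the nearest outside peak, chr14:18224204-18224281, was 24.2 kb away with a fold of 3.90 from 7 reads.

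Chromosome 15 carried a long, even segment. From 18344403 to 19723295, over 1379 kb, it had 256 peaks, 76.9% of the members on this chromosome, at 186 per Mb and with a median gap of 3589 bp. The 13 windows of 100 kb that lay wholly inside it held 11 to 25 peaks each, with a median of 19. Its peaks were shallow, with a median of 8 reads (5 to 37) and a median background of 1.05, and 134 of the 256 lay at the minimum background. Only 23 of them (8.98%) were strong. The highest fold of any member on chromosome 15 was in this segment, at chr15:19319208-19319304, with 13.7 from 27 reads over the minimum background (−log10 q 24.7). The lowest, 2.40, was there too, at chr15:18910947-18911599, with 19 reads over a background of 7.33.

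**Figure D3:**
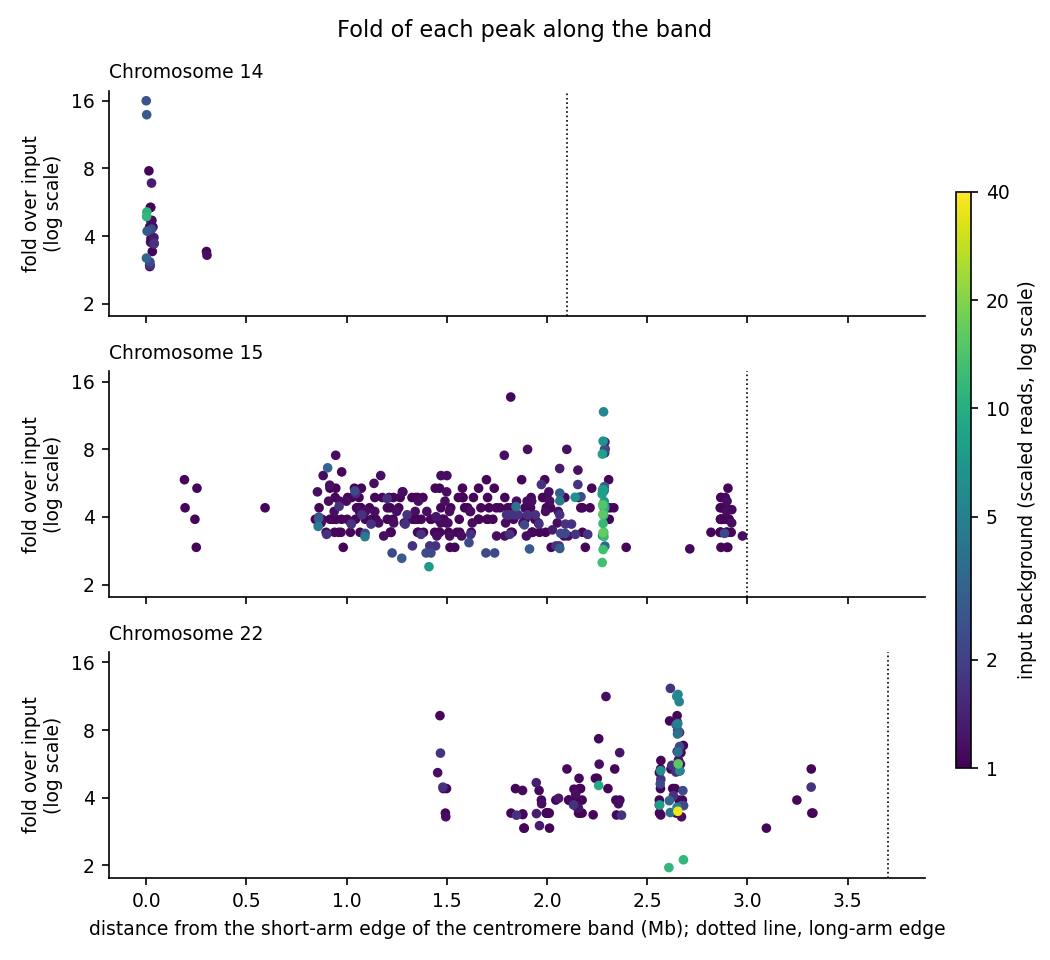
Fold over input (log axis) of every member by distance from the short-arm edge of its band in Mb; colour gives the local input background in scaled reads, on a log scale. Chromosome 15 shows its long row of folds near 4.09 at low background, and chromosomes 15 and 22 each show a narrow column of peaks where 25 of 49 and 27 of 33 strong members lie. The median background in that column is 6.48 on chromosome 15 but 1.69 on chromosome 22.

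Just beyond it, 52.0 kb away, a compact block on chromosome 15 was deeper in both libraries. It held 33 peaks from 19775330 to 19833723, over 58.4 kb, with a median gap of 591 bp. The median pileup was 37 reads (7 to 77) and the median background 6.48. Of its peaks 25 (75.8%, exact interval 57.7% to 88.9%) were strong, against 24 of the other 300 members on the chromosome (8.0%, 5.19% to 11.7%). Its median fold was 4.45, beside 3.90 for those 300, whose median background was 1.05. The block was singled out for its strong peaks, so its share of them is a description. The higher background moved with the strong calls, and its part in them was not tested. The block lies 52.0 kb and 61.5 kb from its neighbours, so with segments joined across gaps of up to 100 kb it was part of the long segment.

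The deepest member on chromosome 15 lay in this block, chr15:19782254-19782720, with 77 reads over 5.64, a fold of 11.7 and the highest −log10 q of all members, 53.4. chr15:19780217-19780440 followed with a fold of 8.69 from 64 reads. chr15:19789222-19789299 and chr15:19790092-19790176 had 8.61 and 8.02 from 19 and 17 reads over backgrounds of 1.32 and 1.25. The widest member of all, chr15:19778065-19779023, spanned 959 bp with a fold of 4.11 from 68 reads. At the other end, chr15:19775620-19775689 had a fold of 2.50 from 34 reads over 12.97. Fold and depth thus ranked the peaks of this block differently.

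The remaining peaks on chromosome 15 were weak or few. Near the long-arm edge, 35 peaks from 20318343 to 20422249 had a median gap of 894 bp but a median of only 7 reads (5 to 10), and none was strong. At 29 of these 35 the background was at its minimum. On the short-arm side 5 peaks lay between 17691117 and 17753574, and the next stretch of 339.8 kb was the longest without a peak in this band. The first of the 5, chr15:17691069-17691146, had a fold of 5.85 from 11 reads and was the member nearest that edge, 191.1 kb inside it. The nearest peak outside, chr15:17494477-17494641, was 5.38 kb away with a fold of 3.90 from 7 reads. At the long-arm edge the last member, chr15:20475211-20475279, had a fold of 3.29, and the nearest outside peak, chr15:20647727-20647795, was 147.8 kb away with 3.90.

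On chromosome 22 the first 1455 kb of the band held no peak. The members began at 15154569, with 8 peaks over 44.1 kb, and went on in 3 segments between 15520422 and 16072056 with 8, 31 and 15 peaks. Of these 62 peaks 6 were strong. The first member, chr22:15154517-15154621, had a fold of 5.17 from 10 reads. The peak of highest fold among the 62, chr22:15994291-15994379, had 11.3 from 23 reads and lay 71.4 kb from the closest annotated gene.

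A block of 55 peaks from 16260052 to 16381716, over 121.7 kb, held 44.7% of the members on chromosome 22 and 27 of its 33 strong ones. Within the block 49.1% were strong (exact interval 35.4% to 62.9%), against 6 of the other 68 members (8.82%, 3.31% to 18.2%). The median fold was 5.27 in the block and 3.90 outside it, the median pileup 13 and 7 reads, and the median background 1.69 and 1.05. This block too was singled out for its strong peaks. The background was at its minimum at 16 of the 55 peaks and 5 or more at 11, and its part in the strong calls was not tested.

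The strongest member on chromosome 22 by fold, chr22:16315745-16315840, had 12.3 from 32 reads over 1.69. chr22:16353643-16353820 had 11.5 from 69 reads, chr22:16347184-16347341 had 11.3 from 74 reads and chr22:16359712-16359921 had 10.7 from 64 reads, all over backgrounds of 5.08 to 5.64. The deepest member of the 3 bands, chr22:16352738-16352896, had 130 reads, yet its fold was 3.48, since the background there was 36.7. The 2 lowest folds of all members were in this block as well, 1.95 at chr22:16308080-16308225 (23 reads over 11.3) and 2.12 at chr22:16380948-16381234 (25 reads over 11.3).

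**Figure D4:**
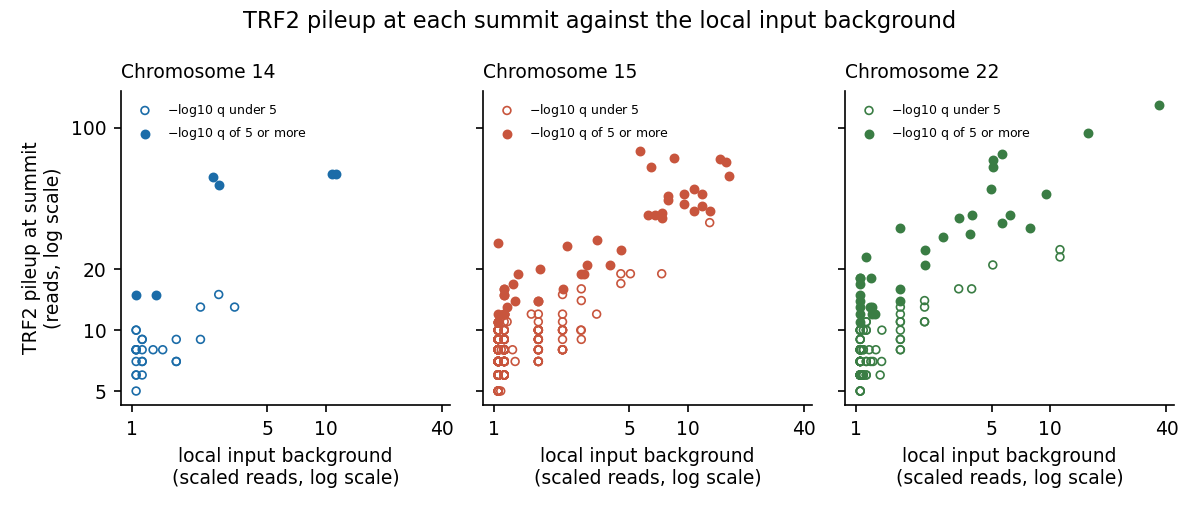
Immunoprecipitated reads at the summit against the local input background in scaled reads, both on log axes, for each member; filled points have a −log10 q of 5 or more. Most points sit at the lower left near the minimum background of 1.05, and the deep peaks of chromosomes 15 and 22 reach 77 and 130 reads at backgrounds of 5.64 and 36.7.

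Beyond this block chromosome 22 had 413.2 kb without a peak and then 6 more members, none of them strong. The last, chr22:17026886-17026954, had a fold of 3.41 from 6 reads and lay 373.1 kb inside the long-arm edge. The nearest peaks outside the band were 797.5 kb away on the short-arm side (chr22:12902516-12902584, fold 3.90, 7 reads) and 805.6 kb away on the long-arm side (chr22:18205554-18205700, fold 13.2, 42 reads). Unlike on chromosome 14, no run of peaks crossed an edge of the band on chromosomes 15 or 22.

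The bands also differed in the genes they hold. RefSeq (GRCh38.p14) places no gene in the band of chromosome 14, 15 in that of chromosome 15 and 72 in that of chromosome 22. Of these 87 genes, 15 had a member summit inside or within 3 kb, and 10 had one inside. These counts take members of any q-value, and some of the 15 genes had no member at a q-value under 0.05. Genes covered 6.94% of the band on chromosome 15 and 19.3% on chromosome 22, and held 1.80% and 22.8% of the members there. The cytogenetic band of chromosome 22 therefore reaches well into annotated sequence, with genes from 15264489 on.

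No strong peak lay within 3 kb of a gene. Of the 38 members within 3 kb of a gene, 0 were strong (exact interval 0% to 9.25%), against 88 of the other 449 (19.6%, 16.03% to 23.6%). The 3 blocks described above lay farther than 3 kb from any gene and held 58 of the 88. Outside them, 30 of the 332 members away from genes were strong (9.04%, 6.18% to 12.6%), an interval that overlaps that of the 38 near genes. The 38 had 5 to 10 reads and a median fold of 3.51. Of them 18 (47.4%) had a q-value under 0.05, against 77.3% of the other 449 and 72.9% of the 332. The deep blocks had no gene between their first and last summits: that of chromosome 22 ended 5.97 kb before the pseudogene ABCD1P4 and began 62.0 kb after ZNF72AP, and that of chromosome 15 ended 49.9 kb before the small RNA pseudogene RNU6-978P.

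Of 11 protein-coding genes in the bands, 3 had a member. POTEH, a member of the primate POTE ankyrin family (chr22:15690026-15721631), had 7 summits inside it, all of 5 or 6 reads, with folds of 2.93 to 3.41. None of the 7 passed a q-value of 0.05. XKR3, of the XK-related membrane proteins (chr22:16783480-16825411), had 1 summit of 5 reads and a fold of 2.93. LOC124903442 (chr15:20295653-20332127) had 1 of 6 reads and 3.41. The summits of XKR3 and LOC124903442 did not pass a q-value of 0.05 either. The other protein-coding genes had none within 3 kb: the distance was 7.77 kb for the olfactory receptor OR11H1, 10.0 kb for GAB4, 58.1 kb for the interleukin 17 receptor gene IL17RA, 151.9 kb for the adenosine deaminase gene ADA2 and 333.1 kb for the bromodomain gene CECR2. It was 89.4 kb for TMEM121B, 110.6 kb for HDHD5 and 202.1 kb for CCT8L2. Which exons or introns the summits lay in was not analysed here.

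Pseudogenes made up most of the rest. On chromosome 22, 9 of 51 pseudogenes had a member within 3 kb. NBEAP3, a copy of the neurobeachin gene, had 8 summits with folds of 3.41 to 4.88 and 6 to 9 reads. LOC124905152 had 6 (3.003 to 4.66), and DUXAP8, a transcribed pseudogene of the double homeobox family, had 3 (3.90 to 5.37). LOC100420175 had 2 within 3 kb (3.39 and 4.31). TOMM40P2 lies inside the span of NBEAP3, and its 2 within 3 kb (3.41 and 3.60) are among the 8 of NBEAP3. BMS1P22 lies inside the span of DUXAP8 and shares 2 of its summits, each with a fold of 3.90. VN1R9P, a vomeronasal receptor pseudogene, had 2, one of them with a fold of 5.37 from 10 reads. On chromosome 15, 1 of 12 pseudogenes had members: HERC2P3, a copy of the ubiquitin ligase gene HERC2, with 5 summits of 3.29 to 4.31. Of the noncoding RNA genes, PSLNR had 2 summits inside it (3.90 and 3.97) and POTEH-AS1 had 3 within 3 kb, all with 6 reads and a fold of 3.41. POTEH-AS1 lies within the span of POTEH, so those 3 are counted for both.

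No member summit lay in a promoter window of the bands. RefSeq promoter windows, 250 bases before to 50 after a gene's start, were available at 19 starts in the bands, and the closest member to any of them was 675 bp away, at POTEH-AS1. That member, chr22:15704169-15704331, had a fold of 3.41 from 6 reads and a −log10 q of 0.811. The window of this noncoding RNA gene is shown because it is the one nearest to a member, at chr22:15703305-15703604 on the minus strand (GRCh38.p14), 5′ to 3′:
POTEH-AS1: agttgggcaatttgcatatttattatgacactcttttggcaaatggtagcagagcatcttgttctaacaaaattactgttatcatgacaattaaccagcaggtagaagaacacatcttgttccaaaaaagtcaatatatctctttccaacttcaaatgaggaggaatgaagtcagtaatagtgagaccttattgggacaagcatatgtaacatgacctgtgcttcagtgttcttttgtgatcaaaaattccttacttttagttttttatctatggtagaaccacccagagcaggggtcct
The telomere motif TTAGGG, searched on both strands, occurred in none of the 19 windows and in 3179 of 35116 promoter windows of the table (9.05%). No match says only that these letters are not in the window. The sequences of the members themselves were not analysed here.

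Spacing between neighbouring summits differed with the layout. The median gap was 857 bp on chromosome 14, 3030 bp on chromosome 15 and 2332 bp on chromosome 22, and the smallest gaps were 192, 137 and 207 bp. Neighbours within 1 kb made up 63.3% of the gaps on chromosome 14, 25% on chromosome 15 and 28.7% on chromosome 22. Members were narrow, with median widths of 117 bp (14), 92 bp (15) and 94 bp (22), against 104 bp in the whole list. No member was narrower than 69 bp, which was also the smallest width in the whole list.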

How the data were processed

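TRF2 chromatin immunoprecipitation and sequencing of HCT116 was analysed from the authors' peak list of 1 immunoprecipitated over 1 input library; no file of the input itself was used. Per the submitters' processing notes, MACS2 2.1.0, ChIPseeker 1.36.0, Bowtie2 2.3.2 and HOMER were used, with GRCh38 (hg38). No source used here states their settings or the handling of reads with several positions. The deposited fold is a ratio at the summit, the pileup plus 1 over the local input background plus 1. The deposited −log10 p and −log10 q values are the peak caller's, and the deposited score is the whole part of 10 times −log10 p.

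Pileup and background were recovered from fold and p in MACS2's forms; a whole number of reads matched 100% of peaks (tolerance 0.001 on −log10 p). A background counted as the minimum when it was less than 0.0005 above it. Tested on simulated data made with the same forms, the right pileup came back in 100% of 2000 simulated peaks. This checks the inversion only. No source used here states library totals, so the depth is known only at summits. Bands came from circlize 0.4.16 (R 4.3.3) and genes from a RefSeq table, without its rows for patch and alternate sequences. Coordinates are 1-based. Intervals are exact Poisson, exact binomial (Clopper-Pearson) or, for medians, from order statistics, at 95%. They describe 1 list, treat its peaks as independent and test no samples. Scripts ran in Python 3.11.15 with pandas 2.3.3, scipy 1.17.1, numpy 2.4.6 and matplotlib 3.10.9.

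The members and measures were chosen with earlier results of these data known. Named peaks were, per chromosome, the 5 of highest and 2 of lowest fold and those nearest each band edge, ties going first to the larger −log10 q, then to the smaller coordinate. Named genes were those with a member summit inside or within 3 kb, up to 10 per chromosome. The deepest and widest members, the segments, the first 5 kb of chromosome 14, POTEH-AS1 and the genes without a summit were named after their values were seen. Motifs in peaks were not analysed here, since no genome sequence was used. Gaps were not compared with the length of the satellite repeat unit.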

Additional observations from a re-analysis of the deposited data

How the results depend on the processing

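Over 144 combinations of result and setting, 87 stayed within counting error (or within 1.5 times for counts) and 57 moved. The 87 are no measure of stability, since some of them could not have moved. Any subset of the members keeps the short-arm shares of 100% (14) and 0% (22), and the band of chromosome 14 holds no gene. No cause of a move was tested, and this includes the smaller number of peaks or genes that many settings leave. Placing peaks in a band by their midpoints kept the same 31, 333 and 123 members. Positions were still taken at the summits, so none of these 21 values could move. With strong peaks alone the counts were 6 (14), 49 (15) and 33 (22), the median folds 7.35, 5.85 and 6.83, the median pileups 54.5, 21 and 23 reads and the median gaps 1625, 1130 and 1380 bp. The densest window then held 100%, 49.0% and 72.7%, and the short-arm share on chromosome 15 fell to 16.3%. At a q-value under 0.05 the median fold was 4.39 (15) and 4.83 (22), the pileup 9 and 11 reads, the strong share 19.4% and 37.1%. The gap on 15 was 3589 bp, and the densest window of 14 held 100%. Merging summits within 1 kb left 12 peaks on chromosome 14, gaps of 4391, 4607 and 4797 bp, a strong share of 10% and a short-arm share of 46.8% on 15. Leaving out 100 kb at each edge, or the densest window, left 2 peaks on chromosome 14, with a median fold of 3.35, 6 reads, a gap of 2544 bp, a strong share of 0% and a densest-window share of 100%. Without its densest window chromosome 15 had a strong share of 8.28%, and chromosome 22 had 80 peaks, a strong share of 11.2%, a pileup of 7.5 reads, a gap of 3559 bp and a densest-window share of 18.8%. Without the segment richest in strong peaks, a setting added after the data were seen, the strong share was 0% (14), 8.0% (15) and 8.82% (22), and the median fold on 14 was 3.35. That segment was chosen by its strong peaks, so this fall follows from the choice. The densest window held 13.2% on 15 at 200 kb and 21.1% on 22 at 50 kb. Segments joined across up to 100 kb, also added later, were 5 on 15, where the compact block then joins the long segment, and 5 on 22. Counting only summits inside genes gave 8 genes on 22. No paired analysis was possible because each group had 1 library.

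No member had fewer than 5 reads. A stretch without a peak shows only that the list held none there, and the part of depth or read handling in it was not tested. Reads from near-identical arrays cannot be assigned to 1 chromosome from this list, and intervals cover counting error only.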
